A study of Homo sapiens with 8 samples.

Results

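The genes described here are those of the ATF4 amino acid response and the chaperones of the endoplasmic reticulum (ER), followed in HaCaT keratinocytes through TGF-beta3 treatment, RAS vectors and p53 siRNA. A list of 37 gene symbols was matched to probe sets that carry a single gene symbol. Of these, 36 had such a probe set and 34 reached 50 on at least 1 array, on a scale that sets the trimmed mean signal of each array to 100, out of 9675 genes at that level among 19775 named genes. Each gene was read from the brightest of its probe sets over the 8 arrays, a choice that used the level of a gene and not its change. ALDH1L2, a mitochondrial folate enzyme, and VLDLR, a lipoprotein receptor, stayed at or below 14.1 and 12.3 on all arrays and are not described further. MARS1, the methionine tRNA synthetase, was represented by probe sets that carry several symbols and was not used here. The other 34 genes all passed the low-signal filter of the fit, 50 or more on at least 2 of the 6 adenovirus arrays. CHAC1 passed only through the LacZ and HRAS G12V arrays with TGF-beta3. STC2 passed through the arrays without TGF-beta3, since among the treated arrays only that of HRAS N116Y, at 58.7, reached 50.

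HaCaT is a spontaneously immortalized human keratinocyte line, and it is known to carry mutant p53. The study used 8 groups with 1 array each. In 6 of them cells carried an adenovirus for LacZ, HRAS G12V or HRAS N116Y, each left untreated or given 5 ng/ml TGF-beta3 for 24 h. The LacZ vector is a control, G12V is a constitutively active RAS and N116Y a dominant negative one. The remaining cells carried no adenovirus, had no TGF-beta3, and were transfected with control siRNA or p53 siRNA. One line was used throughout, so the genes are described for a single genetic background. With 1 array per group, the p-values below rest on how far the TGF-beta3 responses differ between vectors, in that gene and in others. The limma fit pools variance between genes, with 8.74 prior degrees of freedom against 2 residual ones. Each SE and p-value therefore rests more on other genes than on that gene's own responses. The spread between vectors holds both true differences between vectors and technical scatter of single arrays, which cannot be told apart.

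Before the results, the arrays were compared with their labels. PMEPA1, a TGF-beta target, read 333 to 460 on the LacZ, HRAS G12V and HRAS N116Y arrays without TGF-beta3 and 2965 to 3073 on those with it, which follows the titles; the source description in the labels states the reverse for these arrays. HRAS read 316 and 287 on the LacZ arrays, 109 and 86.1 on the arrays labelled HRAS G12V and 67.1 and 58.1 on those labelled HRAS N116Y, so the probe set went against the labels' direction; its position relative to the viral insert was not analysed here, and the vector names below are those of the labels. The level of the p53 siRNA's own target was not analysed here. The 5 keratinocyte markers measured, KRT5, KRT14, DSG3, SFN and PKP1, were at 50 or more on all 8 arrays, with a summed signal of 16602 to 29933. The actin 3' to 5' signal ratio was 1.159 to 1.39 on the adenovirus arrays, 3.68 on the control siRNA array and 4.012 on the p53 siRNA array, and the contrasts below each stay within one of these sets.

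ATF4 is a transcription factor made when translation initiation is restrained through phosphorylation of eIF2, by the kinase GCN2 when amino acids run short and by PERK when unfolded proteins build up in the ER. With C/EBP partners it binds C/EBP-ATF response elements and raises genes for amino acid synthesis, import and tRNA charging, together with TRIB3, which restrains the response, and DDIT3, linked to cell death. The other arms of the unfolded protein response, ATF6 and XBP1, act mainly on chaperones and degradation factors of the ER through the ER stress response element, in which the boxes CCAAT and CCACG stand 9 bases apart. Secretory activity of a keratinocyte, including that of matrix proteins, passes through the same chaperones.

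Promoter sequences are shown because ATF4, ATF6 and XBP1 are known to act through such elements. Promoters were those of RefSeq on GRCh38.p14, 300 bases from 250 before to 50 after a gene's start, and 31 of the 34 genes matched with 46 promoters. On both strands, the ER stress response element was present in 4 of the 46 promoters (8.70%), against 0.0769% of all 35116 promoters. They belonged to HSPA5, HSP90B1, CALR and XBP1. The element TGATGNAA, a common form of the C/EBP-ATF site, was in 9 of the 46 (19.6%), against 3.62% of all promoters. These were AARS1, ASNS, CEBPG, CHAC1, GARS1, HERPUD1, NARS1, SLC1A5 and SLC3A2. No promoter of the list held both of these elements, so no match of one overlapped a match of the other. The ATF6 and XBP1 element TGACGTGG was in 0 of the 46 and in 0.729% of all promoters. A match describes letters in the window and is not evidence of binding. The list was made of genes of these pathways, so the shares are descriptions, and their difference from all promoters was not tested.

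The stretches with an ER stress response element are given for the 4 genes, written 5′ to 3′ on the gene's strand with the element in capitals and 15 bases on each side; in CALR and at the second place in HSP90B1 the element runs on the opposite strand. HSPA5 lies at chr9:125241376-125241424 on the minus strand, HSP90B1 at chr12:103930201-103930354 on the plus strand, CALR at chr19:12938369-12938417 on the plus strand and XBP1 at chr22:28800588-28800636 on the minus strand, all upstream of the start.
HSPA5: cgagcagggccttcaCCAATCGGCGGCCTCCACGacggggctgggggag
HSP90B1: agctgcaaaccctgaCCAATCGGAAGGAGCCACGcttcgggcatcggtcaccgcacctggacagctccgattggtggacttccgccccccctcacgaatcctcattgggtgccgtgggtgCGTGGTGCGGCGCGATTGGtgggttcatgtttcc
CALR: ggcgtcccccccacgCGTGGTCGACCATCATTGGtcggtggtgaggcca
XBP1: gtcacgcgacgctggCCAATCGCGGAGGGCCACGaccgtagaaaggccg

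Of the genes with a C/EBP-ATF element, 4 are shown for the results in which they appear, with the element in capitals: ASNS, which differed between the RAS vectors, SLC1A5, which fell with TGF-beta3, HERPUD1, which rose with it, and CEBPG, a partner of ATF4. ASNS lies at chr7:97872454-97872491 on the minus strand, SLC1A5 at chr19:46784889-46784926 on the minus strand, HERPUD1 at chr16:56931951-56931988 on the plus strand and CEBPG at chr19:33374056-33374093 on the plus strand. The element runs on the opposite strand in HERPUD1.
ASNS: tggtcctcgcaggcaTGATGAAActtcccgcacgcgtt
SLC1A5: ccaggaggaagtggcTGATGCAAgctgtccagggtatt
HERPUD1: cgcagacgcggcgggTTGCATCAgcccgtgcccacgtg
CEBPG: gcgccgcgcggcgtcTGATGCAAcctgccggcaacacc

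With TGF-beta3 the genes of the list that rose were ER chaperones and degradation factors, and the enzymes of serine synthesis were among those that fell. Of the 6 ER chaperones 5 rose and of the 2 ER degradation factors both rose, while 3 of the 6 serine, glycine, one-carbon and asparagine enzymes fell, as did DDIT4, SLC1A5 and STC2. STC2 entered the fit only through the untreated arrays, so its fall is counted but not read as a result. ATF4 itself and its partner factors did not pass the test in either direction. In all, 7 of the 34 genes rose (20.6%) and 6 fell (17.6%), where 16.3% of the 8982 genes tested rose and 17.4% fell, so the shares over the whole list were near the background. Without the HRAS G12V arrays 6 of 33 genes rose (18.2%) and 3 fell (9.09%), with EDEM1, DDIT4, PSPH and SLC1A5 lost. Of all genes in that fit 11.1% rose and 12.1% fell. Without the LacZ arrays 7 of 33 rose (21.2%) and 4 fell (12.1%), with DDIT4 and PSPH lost. Of all genes in that fit 11.9% rose and 12.1% fell. The median change was 0.06 on the log2 scale over the list and -0.01 over all genes tested. These values come from limma across the 6 adenovirus arrays, with the vector and TGF-beta3 as terms and a Benjamini-Hochberg adjusted p under 0.05 as the threshold; because treated and untreated cells of 3 vectors were compared, a change is a mean over the vectors. In total RNA from whole cultures, less of a cell type and less RNA per cell cannot be told apart.

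HSPA5 encodes BiP, the main HSP70 chaperone of the ER lumen and the regulator of the stress sensors. Its scaled signals, listed here and below for LacZ, HRAS G12V and HRAS N116Y cells in that order, were 5268, 7160.0 and 5195 without TGF-beta3 and 8233.5, 8855 and 7411 on treatment. All treated arrays were above all untreated ones, and the mean difference was 0.49 ± 0.12 (SE) on the log2 scale, 1.4-fold, adjusted p = 0.011. The size depended on the choice of values: it was 0.26 after quantile normalization, 0.77 as the mean of the gene's probe sets, and 0.48 with an adjusted p of 0.0831 in a fit without the HRAS N116Y arrays. HSP90B1, the HSP90 chaperone of the ER also called GRP94, read 1450.3, 1533 and 1436 without TGF-beta3 and 2219.5, 2410.4 and 1831 on treatment. The arrays did not overlap, and the change was 0.54 ± 0.11 (SE) on the log2 scale, 1.45-fold, adjusted p = 0.00387. Its probe set and that of CALR are of the kind that can detect related sequences, so the signal of near copies could add to both.

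DNAJB9, a J-domain partner of BiP, had the largest change of the list. It read 269, 207.5 and 269 without TGF-beta3 and 792, 705 and 484 on treatment, so that the lowest treated array was well above the highest untreated one. Its change was 1.39 ± 0.16 (SE) on the log2 scale, 2.62-fold, adjusted p = 0.000125. SDF2L1, a component of ER chaperone complexes, read 383, 391 and 434.5 without TGF-beta3 and 734, 725 and 478 on treatment. The treated LacZ and HRAS G12V arrays stood apart, and the treated HRAS N116Y array was only slightly above the untreated ones. The mean change of SDF2L1 was 0.66 ± 0.16 (SE) on the log2 scale, 1.58-fold, adjusted p = 0.00819.

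PDIA4, a disulfide isomerase, read 762, 631.5 and 838 without TGF-beta3 and 1283, 1364 and 1103 on treatment. All treated arrays were higher, and the change was 0.75 ± 0.14 (SE) on the log2 scale, 1.69-fold, adjusted p = 0.0018. CALR, calreticulin, a calcium-binding lectin chaperone, was higher in each vector but did not pass, with a log2 difference of 0.23 (adjusted p = 0.124) and overlapping arrays. Its size and vector order depended on the probe set. The log2 ratios in LacZ, HRAS G12V and HRAS N116Y cells were 0.10, 0.26 and 0.34 with the brightest one. The others gave 0.54, 0.57 and 0.11, and 0.30, 0.14 and -0.08. Of the 4 genes with an ER stress response element in the promoter, HSPA5 and HSP90B1 thus rose, while CALR and XBP1 did not pass the test. Of the 9 genes with a C/EBP-ATF element, HERPUD1 rose, SLC1A5 fell and the other 7 did not pass. Over all genes tested 16.3% rose and 17.4% fell, and a link between these elements and the changes was not tested.

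HERPUD1, a membrane protein that helps to assemble the ER degradation machinery, read 511, 746 and 716 without TGF-beta3 and 1147, 1355 and 874 on treatment. No treated array fell within the untreated range, and the change was 0.77 ± 0.15 (SE) on the log2 scale, 1.71-fold, adjusted p = 0.003; with the mean of all its probe sets, of which the other lay under the floor on all arrays, it was 0.39. EDEM1, which takes misfolded glycoproteins out of the folding cycle, read 240.0, 187 and 140.4 without TGF-beta3 and 294, 369.6 and 194 on treatment. Its groups overlapped, since the treated HRAS N116Y array was below the untreated LacZ one, but each vector's treated array was above its own control. The change was 0.58 ± 0.15 (SE) on the log2 scale, 1.49-fold, adjusted p = 0.0143, and without the HRAS G12V arrays it was 0.38 with an adjusted p of 0.198. The sensor ATF6 had a log2 difference of -0.02 (adjusted p = 0.919). XBP1, whose spliced mRNA encodes the active factor, had one of 0.31 (adjusted p = 0.0536) and was higher with TGF-beta3 in 3 of 3 vectors; the arrays do not tell its spliced form from the unspliced one.

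**Figure D1:**
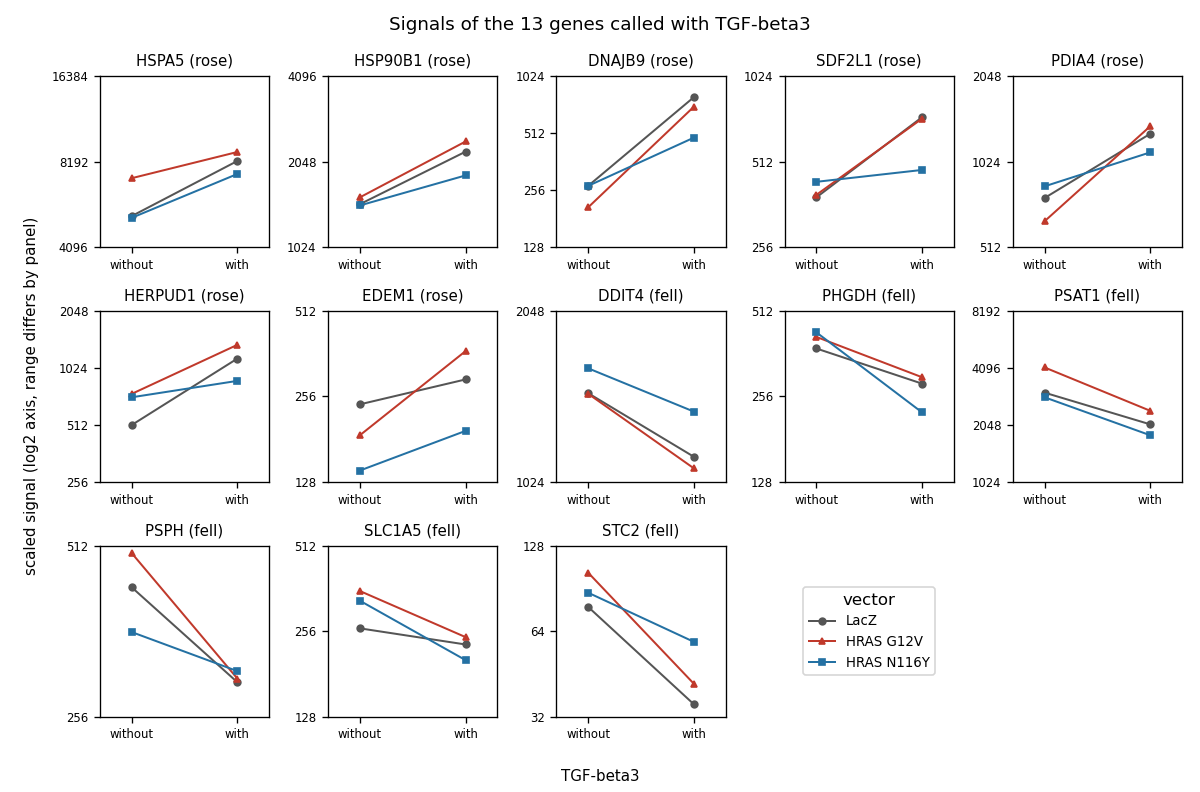
Scaled signal (log2 axis, a different range in each panel) of the 13 genes called with TGF-beta3, without and with TGF-beta3, 1 point per array and 1 line per adenoviral vector. All 3 lines run upwards in the 7 genes that rose and downwards in the 6 that fell; the HRAS N116Y line is the flattest in SDF2L1, from 434.5 to 478, and in HERPUD1, from 716 to 874.

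The enzymes of serine synthesis fell with TGF-beta3. PHGDH, which takes the first step from the glycolytic intermediate 3-phosphoglycerate, read 377, 414 and 430.0 without TGF-beta3 and 284, 299 and 225 on treatment. PHGDH fell by 0.61 ± 0.14 (SE) on the log2 scale, 1.52-fold, adjusted p = 0.00608, with no overlap. PSAT1, the aminotransferase of the next step, read 3030.2, 4116 and 2864 without TGF-beta3 and 2061, 2429.9 and 1805 on treatment. Its untreated arrays were all higher, and PSAT1 fell by 0.66 ± 0.11 (SE) on the log2 scale, 1.58-fold, adjusted p = 0.000981. PSPH, the phosphatase of the last step, read 432, 497 and 361 without TGF-beta3 and 294, 299 and 308 on treatment. The groups did not overlap and PSPH fell by 0.51 ± 0.13 (SE) on the log2 scale, 1.42-fold, adjusted p = 0.0124; the mean of its 3 probe sets gave -0.42 with an adjusted p of 0.0686, and it did not pass in fits without the LacZ or the HRAS G12V arrays.

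The remaining enzymes did not pass. SHMT2, which makes glycine from serine in mitochondria, had a log2 difference of -0.14 (adjusted p = 0.406). MTHFD2, the mitochondrial folate dehydrogenase, had one of -0.29 (adjusted p = 0.0682) and was lower in 3 of 3 vectors. For ASNS, asparagine synthetase and a classical ATF4 target, the log2 difference was -0.21 (adjusted p = 0.223). All 6 enzymes had a value below 0, with a median of -0.40.

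Amino acid transporters showed 1 call. SLC1A5, a carrier of glutamine and other neutral amino acids, read 262, 354 and 327.5 without TGF-beta3 and 229.8, 244 and 202 on treatment. Its lowest untreated array was just above its highest treated one, and SLC1A5 fell by 0.47 ± 0.14 (SE) on the log2 scale, 1.39-fold, adjusted p = 0.0211; without the HRAS G12V arrays it did not pass (adjusted p = 0.107). The cystine carrier SLC7A11 had a log2 difference of -0.25 (adjusted p = 0.139). The large neutral amino acid carrier SLC7A5 had one of -0.13 (adjusted p = 0.38). Its heavy chain SLC3A2, which also pairs with SLC7A11, had one of -0.23 (adjusted p = 0.123). All 4 transporters were lower with TGF-beta3 on average.

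STC2, stanniocalcin 2, a secreted glycoprotein induced by ATF4 in ER stress, had the largest fitted fall of the list. It read 77.9, 103 and 87.4 without TGF-beta3 and 35.4, 41.8 and 58.7 on treatment, and the 3 untreated arrays were the 3 highest. STC2 fell by 1.00 ± 0.21 (SE) on the log2 scale, 2.0-fold, adjusted p = 0.00403 in limma, at signals near the low-signal filter. It entered the fit only through the untreated arrays, where it is high, and its call is not read further. DDIT4, the mTORC1 inhibitor REDD1, read 1467, 1463.5 and 1622 without TGF-beta3 and 1134, 1082 and 1361.5 on treatment. The groups did not overlap and DDIT4 fell by 0.35 ± 0.11 (SE) on the log2 scale, 1.28-fold, adjusted p = 0.0245; it did not pass with an untrended prior, without the vector term, or without the LacZ or the HRAS G12V arrays.

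The other brakes on the response did not pass. TRIB3, a pseudokinase that restrains ATF4, read 768, 827 and 695 without TGF-beta3 and 961, 1069 and 676 on treatment. It was higher in LacZ and HRAS G12V cells and slightly lower in HRAS N116Y cells, a mean log2 difference of 0.22 (adjusted p = 0.178). SESN2, sestrin 2, an inhibitor of mTORC1, was higher in 3 of 3 vectors with its brightest probe set, at 0.46 (adjusted p = 0.07). Its other probe set gave log2 ratios of 0.53, 0.29 and -0.01 in LacZ, HRAS G12V and HRAS N116Y cells. CHAC1, which degrades glutathione, lay near the detection filter, 40.7 to 58.2, at 0.27 (adjusted p = 0.343).

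ATF4 and its partner factors were also not called. ATF4 mRNA read 2606, 3351 and 2234 without TGF-beta3 and 2987, 3218 and 2638 on treatment, with overlapping groups and a log2 difference of 0.13 (adjusted p = 0.417). Since ATF4 is controlled largely at translation, its mRNA is not a measure of its activity. The partners CEBPB and CEBPG had log2 differences of 0.08 (adjusted p = 0.603) and -0.15 (adjusted p = 0.611). DDIT3, also called CHOP, the factor linked to cell death in lasting ER stress, read 85, 43.2 and 97.5 without TGF-beta3 and 96.3, 70.5 and 58.8 on treatment, a difference of 0.05 (adjusted p = 0.894). Its response went in opposite directions in HRAS G12V and HRAS N116Y cells, with signals close to the filter.

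Among the tRNA synthetases limma called 0 of 5, where 16.3% of all genes tested rose and 17.4% fell. An unadjusted p under 0.05 was found for 2 of the 5, and for 4027 of all 8982 genes tested. SARS1, which charges serine tRNA, read 844, 909 and 858 without TGF-beta3 and 1193, 1176.5 and 853 on treatment, a log2 difference of 0.29 (adjusted p = 0.0925). GARS1, for glycine, read 1783, 2129.5 and 1882 without TGF-beta3 and 2579, 2561 and 1805 on treatment, a difference of 0.25 (adjusted p = 0.16). In both genes the treated LacZ and HRAS G12V arrays were above every untreated array and the treated HRAS N116Y array was not. A second, dimmer probe set of SARS1 showed no rise, with log2 ratios of -0.06, -0.06 and -0.23 in LacZ, HRAS G12V and HRAS N116Y cells. AARS1, for alanine, was lower in 3 of 3 vectors at -0.30 (adjusted p = 0.0586). NARS1, for asparagine, and EPRS1, for glutamate and proline, had differences of 0.11 (adjusted p = 0.512) and -0.22 (adjusted p = 0.134).

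**Figure D2:**
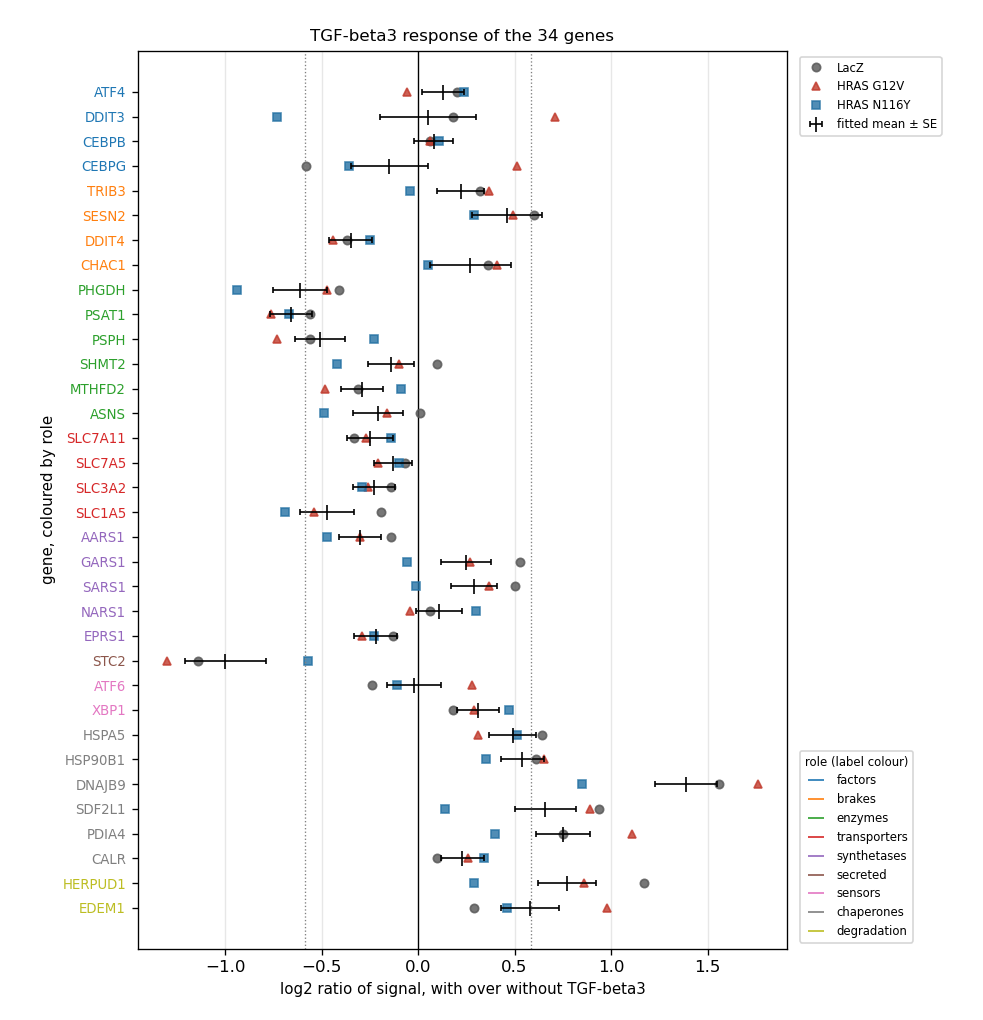
Log2 ratio of the scaled signal with over without TGF-beta3 for the 34 genes, label colour by role; each coloured marker is 1 pair of arrays, the black mark and bar are the fitted mean ± SE, and dotted lines mark 1.5-fold. Chaperones and degradation factors lie to the right of 0 for every vector, and the serine enzymes PHGDH, PSAT1 and PSPH to the left.

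Companion lists of other genes of the same pathways, chosen with earlier results of these data known, were counted in the same fit. Of 18 further ER chaperones and folding enzymes tested, 9 rose (50%, against 16.3% of all genes tested) and 0 fell, with a median of 0.36. In limma 10 of the 18 had an unadjusted p under 0.05, as had 4027 of all 8982 genes tested. The largest rises in that list were of MANF, an ER-resident factor secreted in stress, at 0.91 (adjusted p = 0.000243), FKBP14, a prolyl isomerase, at 0.72 (adjusted p = 0.000658), and HYOU1, a large ER chaperone, at 0.71 (adjusted p = 0.00159). Of 17 further genes of ER degradation, translocation and transport, 9 rose (52.9%) and 0 fell, with a median of 0.39. KDELR3, a receptor that returns chaperones to the ER, was among them at 1.5 (adjusted p = 0.000276), SEC24D, a coat protein of ER exit vesicles, at 0.82 (adjusted p = 0.00609) and DERL2, a degradation factor, at 0.73 (adjusted p = 0.000462). This count of 9 dropped to 4 when a gene's probe sets were averaged, and to 4 without the LacZ arrays.

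Of 16 other ATF4-induced genes tested, 2 rose and 2 fell, 12.5% each, which is below the 16.3% and 17.4% of all genes tested, and their median was 0.04. CTH, the last enzyme of cysteine synthesis, fell, with a log2 change of -1.78 (adjusted p = 0.000108). XPOT, the tRNA exporter, fell as well, with -0.37 (adjusted p = 0.0195). SLC38A2, a carrier of small neutral amino acids, rose, with 0.37 (adjusted p = 0.0222). The other rise was that of KLHL24, an adaptor for protein degradation, which read 25.0, 27.1 and 39.4 without TGF-beta3 and 93.6, 101 and 117 on treatment. It entered the fit only through the treated arrays, and its call is not read further. Of 12 further tRNA synthetases, the cysteine enzyme CARS1 rose, with 0.32 (adjusted p = 0.045). FARSA and FARSB, the subunits of the phenylalanine enzyme, fell, with -0.54 (adjusted p = 0.00406) and -0.52 (adjusted p = 0.00554). Of 12 genes for stress kinases, eIF2 and its regulators, 0 rose and 2 fell (16.7%, near the background), the alpha subunit EIF2S1, with -0.36 (adjusted p = 0.0226), and the exchange factor subunit EIF2B1, with -0.34 (adjusted p = 0.0318).

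Marker lists of other cell types moved with TGF-beta3. Of 6 fibroblast markers 2 were at 50 or more on an array, COL1A1 and COL3A1, and the summed list was 80 to 175 without TGF-beta3 and 227 to 416 with it. COL1A1 read 39.7 to 50.8 without and 164.5 to 288 with TGF-beta3, while COL1A2, PDGFRA, LUM and DCN stayed at or below 21.7. COL3A1 was over 50 on both HRAS N116Y arrays only, 107 and 144. The summed keratinocyte list was 18535 to 22781 without and 29341 to 29933 with TGF-beta3. Of the melanocyte markers measured, 1 of 4, MITF, was at 50 or more, and the summed list was lower with TGF-beta3 in each vector, at 91 against 150 in LacZ cells, 88 against 97 in HRAS G12V cells and 119 against 150 in HRAS N116Y cells; PMEL, MLANA and TYR stayed at or below 14.3. On these 6 arrays no leukocyte or endothelial marker reached 50. The part of these markers in the TGF-beta3 results was not tested.

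The response was then set out by vector. With 1 array for each state these are ratios of single arrays with no test, and the difference in response between vectors was not tested. In LacZ cells the treated signal was 1.5-fold or more above the untreated one in 7 of 34 genes and below it in 1, where 12.3% and 13.0% of all genes measured in that pair were. In HRAS G12V cells 7 of 34 were higher and 3 lower, against 13.6% and 13.4%. In HRAS N116Y cells 1 of 33 was higher and 4 were lower, against 12.5% and 12.9%. The 1 higher gene in HRAS N116Y cells was DNAJB9, and the 4 lower ones were DDIT3, PHGDH, PSAT1 and SLC1A5.

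By gene, the log2 ratio of DNAJB9 was 1.56 in LacZ, 1.76 in HRAS G12V and 0.85 in HRAS N116Y cells. For SDF2L1 the ratios were 0.94, 0.89 and 0.14, and for HERPUD1 1.17, 0.86 and 0.29. PDIA4 had 0.75, 1.11 and 0.40. In these 4 genes the smallest ratio was that of the HRAS N116Y pair. HSPA5 had 0.64, 0.31 and 0.51 with its brightest probe set, while the dimmer one gave 1.24, 1.16 and 0.77, so the order of the vectors differed between them. EDEM1 had 0.29, 0.98 and 0.46, with the LacZ pair the lowest. PHGDH had its strongest decrease in HRAS N116Y cells, with -0.41, -0.47 and -0.94. STC2 had -1.14, -1.30 and -0.57, but its other probe set gave -0.36, -0.23 and -1.39, the reverse order, so no order of the vectors is given for it.

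Over the list, the ratio in HRAS N116Y cells was the lowest of the 3 vectors in 17 of 34 genes (50%), against 39.8% of all genes tested. Among the genes that rose it was the lowest in 5 of 7 (71.4%), against 45.0% of all 1466 genes that rose. These are descriptions of single pairs. When the HRAS N116Y arrays were left out of the limma fit, which leaves 1 residual degree of freedom, 11 genes of the list rose (32.4%) and 8 fell (23.5%) with TGF-beta3, where 21.2% and 24.4% of all genes in that fit did; the falls were thus at the background. The added rises were GARS1, SARS1, SESN2, TRIB3 and XBP1, HSPA5 no longer passed, and the added falls were MTHFD2 and SLC7A11.

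The vectors were compared with each other over both TGF-beta3 states. ASNS, SLC7A11 and CEBPB were higher on the arrays labelled HRAS G12V than on those labelled HRAS N116Y, and no gene of the list was called against LacZ. For HRAS G12V against HRAS N116Y, 3 of 34 genes rose (8.82%) and 0 fell in limma, where 2.58% of all genes tested rose and 3.8% fell. An unadjusted p under 0.05 was found for 12 of the 34, and for 1922 of all 8982 genes tested. The median of the list was 0.22, against -0.01 over all genes tested. In the list 28 of 34 genes were above 0, against 4399 of all 8982. The count of 3 depended on single arrays. More genes of the list rose without either HRAS N116Y array, where the share of all genes that rose also went up. Without either HRAS G12V array none of ASNS, SLC7A11 and CEBPB passed, though EDEM1 did without the untreated one. With each array left out in turn, the log2 difference was 0.49 to 0.90 for ASNS, 0.68 to 0.85 for SLC7A11 and 0.46 to 0.50 for CEBPB.

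SLC7A11, which brings in cystine for glutathione synthesis, read 304 and 242 on the LacZ arrays, 421 and 348 on the HRAS G12V arrays and 236.5 and 215 on the HRAS N116Y arrays, each without and then with TGF-beta3. Both HRAS G12V arrays were the highest and both HRAS N116Y arrays the lowest of the 6. The difference between these vectors was 0.76 ± 0.15 (SE) on the log2 scale, 1.7-fold, adjusted p = 0.0129 in limma. Another SLC7A11 probe set read, in the same order, 327 and 254, 321 and 245, and 263 and 153.5. A dimmer one read 85.9 and 109.6, 89.4 and 88.5, and 80.8 and 58.7. In both, HRAS N116Y arrays were below HRAS G12V ones of the same state, but HRAS G12V arrays were not both above LacZ. ASNS, which makes asparagine from aspartate and glutamine, read 442 and 446 on the LacZ arrays, 627 and 562 on the HRAS G12V arrays and 434 and 310.2 on the HRAS N116Y arrays, each without and then with TGF-beta3. The HRAS G12V arrays were again the highest, and the difference was 0.69 ± 0.15 (SE) on the log2 scale, 1.62-fold, adjusted p = 0.025. Averaging all probe sets gave 0.54 for SLC7A11 and 0.35 for ASNS, neither past the threshold; the second ASNS probe set was under the floor on all arrays. Without the untreated or the treated HRAS G12V array the adjusted p was 0.0746 or 0.082 for SLC7A11 and 0.0623 or 0.172 for ASNS.

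CEBPB, a leucine zipper factor that pairs with ATF4, read 951 and 992 on the LacZ arrays, 1245 and 1299 on the HRAS G12V arrays and 879 and 946 on the HRAS N116Y arrays, each without and then with TGF-beta3. The HRAS G12V arrays were above all others, and the difference was 0.48 ± 0.13 (SE) on the log2 scale, 1.4-fold, adjusted p = 0.0485. It was close to the threshold and was lost after quantile normalization, with averaged probe sets, with an untrended prior, without either LacZ array (adjusted p = 0.065 and 0.0642) and without either HRAS G12V array (0.342 and 0.356). EDEM1 differed by 0.67 (adjusted p = 0.0623), PSAT1 by 0.48 (adjusted p = 0.0614) and ATF4 by 0.44 (adjusted p = 0.0943), none of them past the threshold; for ATF4 all HRAS G12V arrays were above the HRAS N116Y ones.

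Against LacZ, with the same LacZ arrays in both comparisons, limma called 0 of 34 genes for HRAS G12V, where 0.0445% of all genes tested were called, 4 of 8982. Of the 34, 6 had an unadjusted p under 0.05, as had 574 of all 8982 genes tested. The median of the list was 0.12, and 26 of the 34 were above 0, against 4645 of all 8982. The log2 difference was 0.52 (adjusted p = 0.514) for SLC7A5, 0.50 (adjusted p = 0.595) for SLC7A11, 0.42 (adjusted p = 0.716) for ASNS, 0.39 (adjusted p = 0.68) for CEBPB and -0.71 (adjusted p = 0.755) for DDIT3. SLC7A5 read 1132 and 1078 on the LacZ arrays, 1706 and 1474 on the HRAS G12V arrays and 1326 and 1241 on the HRAS N116Y arrays, each without and then with TGF-beta3, and its HRAS G12V arrays were the highest. When limma was given LacZ and HRAS G12V cells only, with 1 residual degree of freedom, ASNS, CEBPB, HERPUD1, SLC7A11 and SLC7A5 passed (14.7% of the list). The share of all genes that rose was then 1.22%, against 0 of 8982 genes with all arrays. Leaving out 1 HRAS N116Y array adds no further support, since the other is fitted by its own vector term. The SLC7A11 values are those of its brightest probe set, and its other probe sets did not place both HRAS G12V arrays above LacZ.

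For HRAS N116Y against LacZ limma called 0 of 34 genes, where 2.43% of all genes tested were called. Here 3 of the 34 had an unadjusted p under 0.05, as had 1331 of all 8982 genes tested. The median of the list was -0.12, and 24 of the 34 were below 0, against 4206 of all 8982. EDEM1 had the largest difference, -0.69 (adjusted p = 0.0984), with both HRAS N116Y arrays below both LacZ arrays, and it passed when only LacZ and HRAS N116Y cells were fitted (adjusted p = 0.0274). The count of 0 became 6 without the untreated HRAS N116Y array, all lower: ASNS, DNAJB9, EDEM1, SARS1, SDF2L1 and TRIB3 (17.6%). The share of all genes that fell was then 7.99%, against 0.846% with all arrays. Without the treated HRAS N116Y array the count was 1, XBP1, with 2.74% of all genes lower. XBP1 differed by -0.37 (adjusted p = 0.24). Over the 6 enzymes the median was 0.16 for HRAS G12V and -0.14 for HRAS N116Y, both against the shared LacZ arrays, and none of them passed. Among the companion genes ATF3, a stress factor that ATF4 induces, rose with HRAS N116Y against LacZ, with a log2 change of 0.84 (adjusted p = 0.0456), and was lower with HRAS G12V than with HRAS N116Y, at -0.78 (adjusted p = 0.0373).

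**Figure D3:**
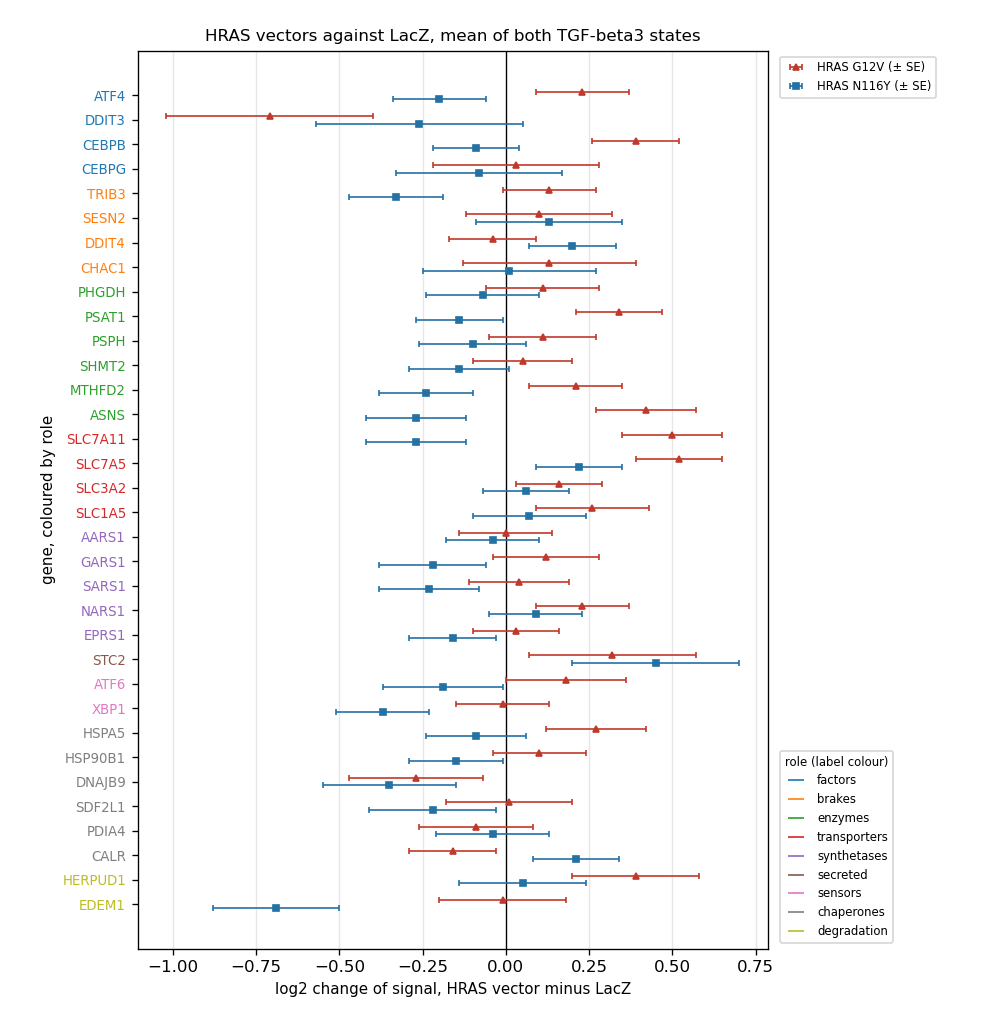
Log2 difference in signal between each HRAS vector and LacZ for the 34 genes, fitted over both TGF-beta3 states, with bars of ± 1 SE; red is HRAS G12V, blue HRAS N116Y and label colour the role. Red lies right of blue in 28 of 34 genes, and EDEM1 has the lowest blue value, -0.69.

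The siRNA arrays were compared with each other as 1 pair, p53 siRNA over control siRNA, without TGF-beta3 and with no test. Of 33 genes measured, p53 siRNA was 1.5-fold or more above the control in 5 and below it in 4, 15.2% and 12.1%, where 11.1% and 15.1% of all genes measured were. The shares were near the background. The higher genes were chaperones, a degradation factor and mitochondrial one-carbon enzymes, and the lower ones included DDIT3 and 2 of the brakes on the response.

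SDF2L1 read 317 on the control siRNA array and 732.5 on the p53 siRNA array, a log2 ratio of 1.21. EDEM1 read 204 on the control siRNA array and 409 on the p53 siRNA array, a ratio of 1.00. HSPA5 read 3916 on the control siRNA array and 6040.2 on the p53 siRNA array, a ratio of 0.63, while its second, dimmer probe set gave -0.35. The other chaperones lay between -0.11 for HSP90B1 and 0.44 for DNAJB9. MTHFD2 read 939.9 on the control siRNA array and 1554 on the p53 siRNA array, a ratio of 0.73. SHMT2 read 1004 on the control siRNA array and 1513 on the p53 siRNA array, a ratio of 0.59. SHMT2 was just inside the 1.5-fold threshold, and SLC1A5, with 0.58, lay just outside it.

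PHGDH read 589 on the control siRNA array and 250.4 on the p53 siRNA array, a log2 ratio of -1.23 and the largest decrease of the list. TRIB3 read 1308 on the control siRNA array and 595 on the p53 siRNA array, a ratio of -1.14. DDIT3 read 202 on the control siRNA array and 94.7 on the p53 siRNA array, a ratio of -1.09. These 3 genes were more than 2-fold lower with p53 siRNA. SESN2, a known p53 target as well as an ATF4 target, read 67.0 on the control siRNA array and 37.9 on the p53 siRNA array, a ratio of -0.82, while its other probe set gave -0.26. CHAC1, at 45.8 and 26.3, was under the filter on both arrays. ATF4, at 3831 and 2991.5, had a ratio of -0.36.

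The ratio of actin signals named above was higher on these arrays, and some probe sets of the list read low there. A second probe set of CALR read 31.0 and 27.4 on the siRNA arrays and 208 to 371 on the adenovirus arrays, and one of EPRS1 read 68.4 and 31.0 against 420.0 to 565. The part of either in the siRNA ratios was not tested. The only leukocyte marker at 50 or more, HLA-DRA, read 53 on the control siRNA array and 0.8 on the p53 siRNA array, and the summed leukocyte list was 94 and 17. The summed melanocyte list was 70 and 154, with MITF at 64.4 and 131, and the summed fibroblast list was 169 and 118, with COL1A1 at 115 and 74.1. The part of these markers in the siRNA comparison was not tested.

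**Figure D4:**
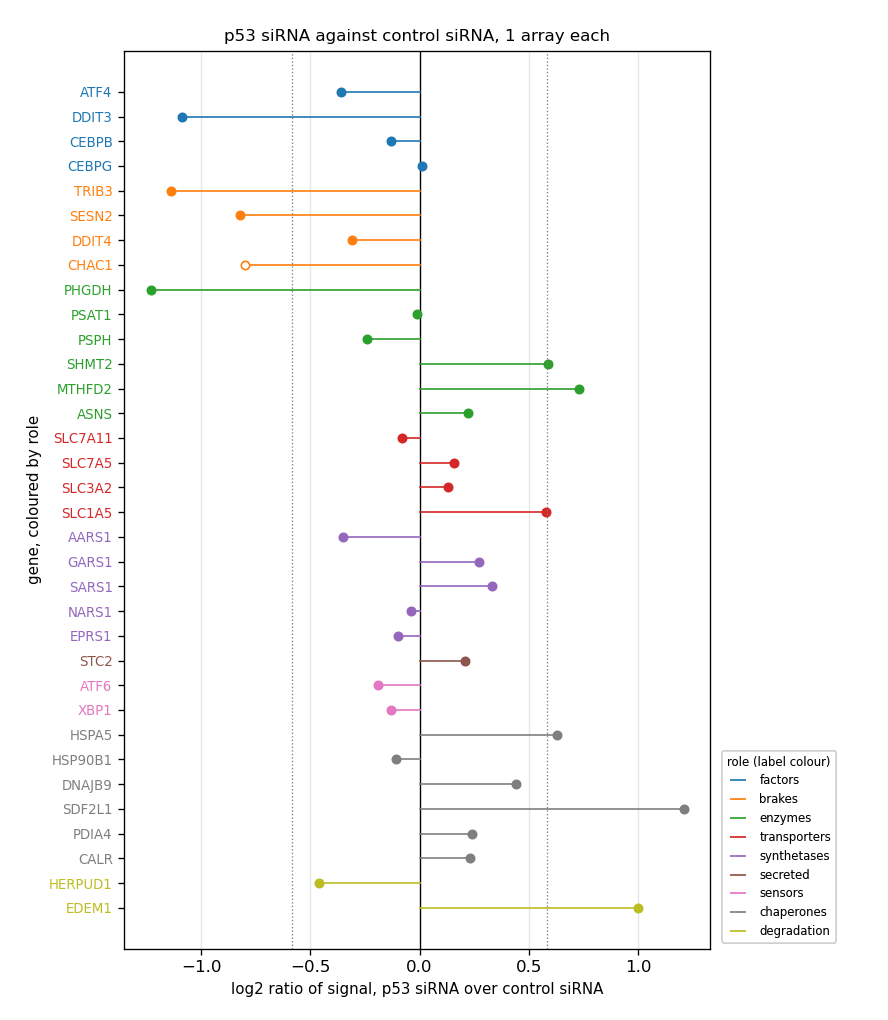
Log2 ratio of the scaled signal with p53 siRNA over control siRNA for the 34 genes, 1 array each, label colour by role; dotted lines mark 1.5-fold and the open marker is CHAC1, under 50 on both arrays. SDF2L1 (1.21) and EDEM1 (1.00) are farthest to the right, and PHGDH (-1.23), TRIB3 (-1.14) and DDIT3 (-1.09) farthest to the left.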

How the data were processed

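The authors deposited 1 intensity per probe set and array on a linear scale; the submitters' processing notes name MAS5 5.0. The genome build behind the array annotation is not named in its sources; coordinates are RefSeq's, on GRCh38.p14. Each of the 8 arrays was rescaled to a 2% trimmed mean of 100, which left it as deposited in practice; signals under 20 were set to 20, and log2 was taken. The platform annotation gave 41097 of 54675 probe sets 1 symbol, 1801 several and 11777 none; symbols were updated through RefSeq's gene table, and promoter windows came from RefSeq. Genes at 50 or more on 2 of 6 adenovirus arrays, 8982, entered limma 3.58.1 (R 4.3.3) with vector and TGF-beta3 as terms, a trended prior of 8.74 degrees of freedom and 2 residual ones; the median residual SD was 0.152. The fit was tested on simulated data. Genes were named by role, all list members being described, with the largest companion changes. The genes and lists were chosen with earlier results of these data known. Alternatives were the floor (10, 50), quantile normalization, the filter (none, 100), the mean of all probe sets, an untrended prior, no vector term, a 2-fold threshold and each vector or array left out; after the data were seen, all genes above the floor on an array were also fitted. The number of arrays limits the precision.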

Additional observations from a re-analysis of the deposited data

Results flagged for a closer look

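DDIT3, the factor also called CHOP, moved in opposite directions with TGF-beta3 under the RAS vectors. Its log2 response was 0.71 in HRAS G12V cells, from 43.2 to 70.5, and -0.73 in HRAS N116Y cells, from 97.5 to 58.8, a difference of 1.44. Each response is 1 pair of arrays with signals close to the low-signal filter, and the difference was not tested.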

How the results depend on the processing

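With 1 array per group and 2 residual degrees of freedom, calls near the threshold depended on the settings, and the cause was not tested unless a setting's own construction shows it. With no filter, limma called 0 of 19775 genes in any contrast, and so 0 of the 34 genes rose or fell. With the 11579 genes above the floor on an array, an alternative chosen after seeing the data, 6 rose and 5 fell with TGF-beta3. These were 17.6% and 14.7% of the list, against 10.6% and 11.1% of all genes. In that fit 0 of the list rose with HRAS G12V against HRAS N116Y, against 0.345% of all genes. That last count was also 0 with probe sets averaged (0.772% of all genes) and 1 with an untrended prior (1.21%). Without the HRAS N116Y arrays 11 genes rose with TGF-beta3, and 5 rose with HRAS G12V against LacZ, where 21.2% and 1.22% of all genes did. Without the HRAS G12V arrays 3 fell with TGF-beta3, and 1 fell with HRAS N116Y against LacZ, where 12.1% and 1.79% of all genes did. In fits without 1 array, the other array of that vector was fitted by its own term. For TGF-beta3 such fits therefore rested on the same arrays as the fit without both. Leaving out each array in turn gave 6 to 11 rises and 3 to 8 falls with TGF-beta3, 0 to 5 rises with HRAS G12V against LacZ, 0 to 6 falls with HRAS N116Y against LacZ, and 0 to 13 rises and 0 to 1 falls with HRAS G12V against HRAS N116Y, the lone array being assumed to vary like the others. For single pairs a 2-fold threshold left 2 genes higher with TGF-beta3 in LacZ cells, 2 higher and 1 lower in HRAS G12V cells, 0 higher and 0 lower in HRAS N116Y cells, and 2 higher with p53 siRNA. The genes lower in LacZ cells were 2 after quantile normalization, 0 with a filter of 100 and 2 with probe sets averaged, which also gave 2 genes higher in HRAS N116Y cells and 3 higher with p53 siRNA. The vector term pairs treated and untreated arrays within a vector. Without it, 6 genes rose (17.6%) and 4 fell (11.8%) with TGF-beta3, where 10.6% and 11.8% of all genes did.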
